A study of Homo sapiens with 2 samples.

Results

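The human nuclear genome holds many stretches of sequence copied from mitochondrial DNA, and 99 such copies were listed among the 25556 genes of the deposited expression table. They were chosen by symbol alone: pseudogenes named after a mitochondrial NADH dehydrogenase (MTND), cytochrome c oxidase (MTCO), ATP synthase (MTATP) or cytochrome b (MTCYB) gene, and the MTRNR2L genes, which are copies of the mitochondrial 16S ribosomal RNA gene. Together they held 15196 reads in the IP library and 46798 reads in the input library, so that they made up 0.258% of all IP reads and 1.68% of all input reads. Their pooled level in the IP was 0.153 times that in the input (95% interval 0.150 to 0.156).

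The libraries came from a RIP-seq experiment, in which RNA pulled down together with a chosen protein (the IP) is sequenced next to RNA taken from unselected lysate (the input). There was 1 IP library and 1 input library, both from untreated, wild-type Huh-7, a liver cancer (hepatocellular carcinoma) line of human origin grown in medium with serum. The series describes an IP with an antibody to the splicing factor SRSF7, from 90% of the lysate, with 10% kept as input, and labels the IP library SPSF7. The sample protocol instead names an antibody to the m6A reader YTHDF2 and poly(A) selection before the IP, and the files do not settle which was used. With 1 library in each group there is no replicate check and no test, and p-values are not given.

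As background, mitochondrial DNA is a small circle that encodes ribosomal RNAs, transfer RNAs and a set of membrane subunits of the respiratory chain and ATP synthase. Its transcripts are made and kept inside mitochondria, are very abundant in cells rich in mitochondria such as liver cells, and mostly carry short poly(A) tails. Copies of this DNA in the nuclear genome, called NUMTs, were left without the mitochondrial promoters, and recent ones are nearly identical to the mitochondrial sequence. A short read from a mitochondrial transcript can therefore be aligned to a NUMT, and the reads given here for a copy cannot be told apart from reads of its mitochondrial parent. The deposited table listed 0 genes on the mitochondrial chromosome, so the parents themselves could not be set beside their copies.

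Reads assigned to genes numbered 5897293 in the IP and 2782045 in the input. The median gene had 20 IP and 8 input reads, and the median copy 2 and 2. Read counts were recovered from the deposited RPKM values (reads per kilobase of exon, scaled to the reads assigned in the library). Counts of 74 of the 99 copies were even or 0 in both libraries. Over all genes, 70.3% of IP counts and 77.4% of input counts were even or 0. If reads were counted in pairs, intervals that take reads as independent are too narrow, and intervals from halved counts are therefore given where they change a statement. All intervals cover counting error only. All 8 hepatocyte markers were above 0, with summed levels of 5737 RPKM in the IP and 6740 RPKM in the input. Summed RPKM of the other marker sets was 22.2 in the IP and 30.3 in the input for immune cells, 2.70 and 3.99 for endothelial cells, 1.49 and 1.92 for fibroblasts, and 694 and 1052 for erythroid cells, with the IP given first in each pair.

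The choice of scale between the libraries shifts every ratio by a common factor. Centring on the median gene multiplied ratios by 0.908 and scaling to reads in protein-coding genes by 0.763, and neither took a parent group across 1. Scaling both libraries to the same sum of RPKM multiplied them by 2.39 and moved the median log2 ratio of all genes from 0.14 to 1.24. The pooled ratio of the 99 copies was 0.366 on that scale, still below 1, while the pooled copies of MTND5, MTND6 and MTCYB passed above it.

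**Figure D1:**
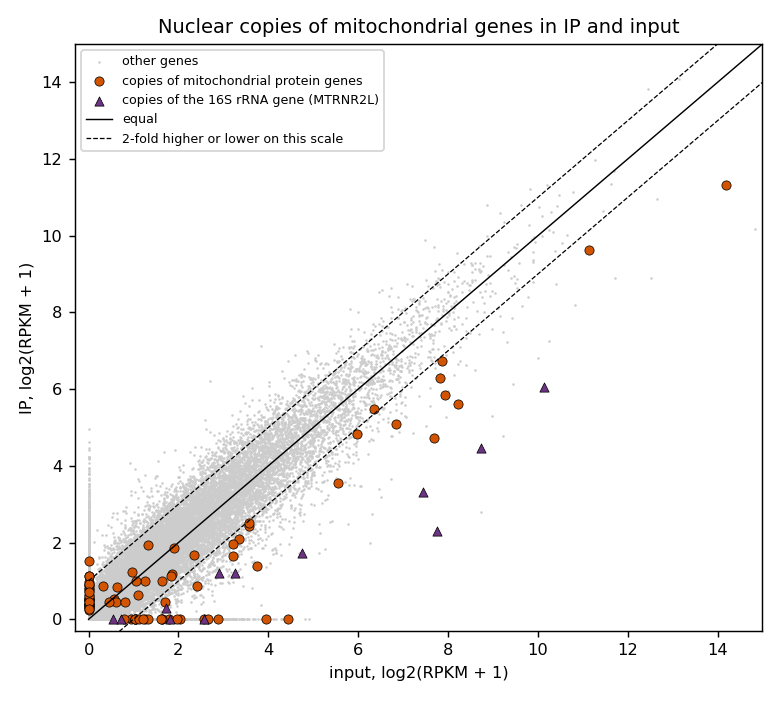
Level of each gene in the IP (vertical axis) against the input (horizontal axis), both as log2(RPKM + 1), with nuclear copies of mitochondrial genes drawn over all other genes in grey. The copies with the most reads lie below the line of equal levels, led by MTATP6P1 at 2541 RPKM in the IP and 18722 RPKM in the input, while copies at the lower left have only a few reads and lie on both sides.

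Of the 99 copies, 49 averaged 1 RPKM or more over the IP and the input, and 50 did not. Of those 49, 39 were at least 2-fold lower in the IP on the log2(RPKM + 1) scale and 0 at least 2-fold higher; over all 14057 genes past the same filter, 8.25% were that much lower and 11.3% that much higher. The median log2 ratio of the 49 was -1.64 (order-statistic interval over genes -2.04 to -1.44), against 0.14 over all genes. Because 18 of the 49 reached the mean only through the input, with under 1 RPKM in the IP, the same was counted for copies with at least 1 RPKM in the IP, a choice made after the values were seen. Of those 34 copies, 23 were at least 2-fold lower and 3 at least 2-fold higher, against 4.73% and 15.2% of all genes by this rule. The 3 higher ones were MTCYBP35, MTND5P4 and MTND6P33, with 8, 2 and 2 reads in the IP and 0 in the input. Around the 2-fold line, MTCYBP18 at -1.13 and MTND4P24 at -1.06 lay just inside and MTND5P11 at -0.89 and MTCO1P22 at -0.70 just outside.

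Most of the signal came from a few copies. MTATP6P1, MTND1P23 and MTRNR2L12 were the 3 copies with the most reads and held 81.8% of the IP and 87.8% of the input reads of all copies. MTATP6P1 alone held 10205 IP and 35471 input reads, and without it the other 98 copies stood at a pooled ratio of 0.208 (0.201 to 0.215). Of the 36 copies with at least 10 reads in all, 28 had an interval wholly below 1 and 0 wholly above it, against 17% of all genes with as many reads below and 30.6% above. With read counts halved, as for 2 reads per fragment, 24 stayed wholly below, against 11.3% of all genes. The same-RPKM-sum scale left 18 of the 36 with an interval wholly below 1 and put 2 wholly above it, against 1.19% of all genes below and 76.5% above on that scale.

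Among parents with reads in both libraries, the copies of the 16S ribosomal RNA gene had the lowest level in the IP relative to the input. This RNA is the core of the large subunit of the mitochondrial ribosome, and within its gene lies a short reading frame for the peptide humanin, after which the MTRNR2L ("humanin-like") genes are described. The 12 copies together held 610 IP and 5099 input reads, a ratio of 0.0564 (0.0518 to 0.0614), or 0.135 on the same-RPKM-sum scale. Every one of the 12 had reads in the input, and 4 had 0 in the IP, as had 2022 of all 25556 genes. MTRNR2L12, on chromosome 3 (96617188 to 96618236, minus strand), had 404 reads (65.3 RPKM) in the IP and 3272 reads (1121 RPKM) in the input, a ratio of 0.0582 (0.0524 to 0.0646). MTRNR2L8, on chromosome 11 (10507894 to 10509186, minus strand), had 161 reads (21.1 RPKM) in the IP and 1538 reads (428 RPKM) in the input, a ratio of 0.0494 (0.0417 to 0.0581). These counts make both copies lower in the IP by more than 10-fold, and their intervals overlap.

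The remaining 10 copies of the 16S gene held 45 IP and 289 input reads and stood at 0.0735 (0.0524 to 0.101), close to the deep pair. MTRNR2L1, on chromosome 17, had 21 reads (2.29 RPKM) in the IP and 112 reads (25.9 RPKM) in the input, a ratio of 0.0885 (0.0527 to 0.142). MTRNR2L2, listed with only 87 exonic bases, had 2 IP and 52 input reads, a ratio of 0.0181 (0.00214 to 0.0689). MTRNR2L9, listed with 75 bases, had 4 IP and 36 input reads, a ratio of 0.0524 (0.0136 to 0.146). The short listed lengths give high RPKM from few reads (9.04 RPKM in the IP and 173 RPKM in the input for MTRNR2L9). MTRNR2L10 (8 IP and 25 input reads) stood at 0.151 (0.0589 to 0.345), and MTRNR2L3 (8 and 19) at 0.199 (0.0752 to 0.475). MTRNR2L11 had 2 IP and 10 input reads, a ratio of 0.0944 (0.0101 to 0.443). MTRNR2L6 had 0 IP and 20 input reads and was 14.1-fold lower in the IP if 0 reads is taken as 3. The interval of its ratio reached up to 0.0956, or 0.210 with halved counts. By the same floor, the IP level of MTRNR2L13 stood 7.07-fold below its input level, on counts of 0 (IP) and 10 (input). Counting error allowed a ratio for MTRNR2L13 of up to 0.210, or 0.515 with halved counts. MTRNR2L4 and MTRNR2L7 had 0 IP reads and 3 and 2 input reads, too few for a fold.

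**Figure D2:**
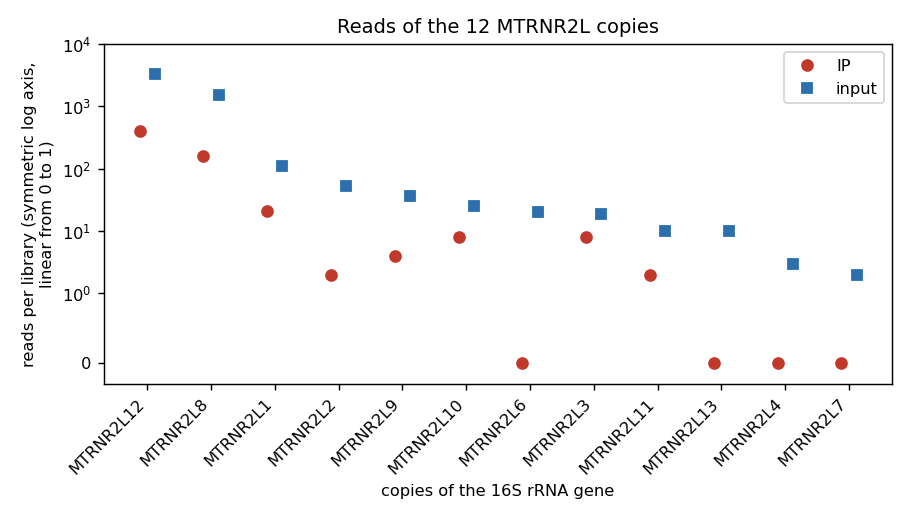
Reads per library of the 12 MTRNR2L copies of the 16S rRNA gene, with IP as circles and input as squares on a symmetric log axis. The input count is above the IP count for each copy, from 404 IP and 3272 input reads for MTRNR2L12 down to 0 and 2 for MTRNR2L7; the libraries differ in depth, with 5897293 IP and 2782045 input reads.

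RefSeq places annotated microRNAs inside 2 of these 16S copies, on the same strand. MIR4485 lies within MTRNR2L8 at chr11:10508270-10508326, strand minus, and the mature hsa-miR-1973 within MTRNR2L13 at chr4:116299750-116299768, strand plus (GRCh38.p14). They are shown because the MIR4485 stretch has values of its own in the table; capitals mark the mature microRNA in the hairpin and the seed (bases 2 to 8) in each mature sequence, and the 2 seeds differ.
MIR4485 hairpin: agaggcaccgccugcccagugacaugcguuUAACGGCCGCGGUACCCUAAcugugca
hsa-miR-4485-3p: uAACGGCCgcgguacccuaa
hsa-miR-1973: aCCGUGCAaagguagcaua

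The 57 bases of MIR4485 had 1 IP read (2.97 RPKM) and 12 input reads (75.7 RPKM), a ratio of 0.0393 (0.000920 to 0.266) whose interval includes that of the whole MTRNR2L8 copy. Reads over these bases can be counted for both entries, and whether they came from the microRNA precursor or from longer 16S sequence was not tested. MIR1973 was not used here beyond its position.

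Complex I, NADH dehydrogenase, is the entry point of the respiratory chain, and its mitochondrially encoded subunits sit in the membrane arm that pumps protons. The 41 MTND copies held 3560 IP and 4781 input reads, a pooled ratio of 0.351 (0.336 to 0.367), or 0.840 on the same-RPKM-sum scale. Most reads of ND1, ND2, ND4, ND5 and ND6 came from 1 copy each. MTND1P23 had 1748 reads (797 RPKM) in the IP and 2346 reads (2267 RPKM) in the input, a ratio of 0.352 (0.330 to 0.374), and MTND2P28 had 474 reads (77.0 RPKM) and 659 reads (227 RPKM), a ratio of 0.339 (0.301 to 0.382). MTND4P12 was lower, with 458 reads (56.4 RPKM) in the IP and 938 reads (245 RPKM) in the input and a ratio of 0.230 (0.206 to 0.258).

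ND5, ND6 and the small ND4L gave the extremes of the complex I copies. MTND5P11 had 465 reads (43.5 RPKM) in the IP and 410 reads (81.3 RPKM) in the input, a ratio of 0.535 (0.467 to 0.613) that turned to 1.28 on the same-RPKM-sum scale. All 11 ND5 copies together held 501 IP and 411 input reads, so their pooled ratio rests on MTND5P11. Of the 11, 9 had 0 input reads, as had 4881 of all 25556 genes, and these 9 had at most 8 IP reads each. MTND5P12 had 7 IP reads and 1 input read, a ratio of 3.30 (0.424 to 149). MTND6P4 is a copy of the gene encoded on the opposite strand of mitochondrial DNA. It had 322 reads (105 RPKM) in the IP and 338 reads (233 RPKM) in the input, a ratio of 0.449 (0.385 to 0.525). That ratio turned to 1.07 on the same-RPKM-sum scale, where its interval includes 1. The second copy of ND6 with at least 10 reads, MTND6P22, stood at 0.131 (0.0380 to 0.366) on 5 IP and 18 input reads. MTND4P24 had 11 IP and 12 input reads, a ratio of 0.432 (0.173 to 1.07), and MTND4P15 6 and 4, a ratio of 0.708 (0.168 to 3.41), so that neither interval leaves out 1. The ND4L copies MTND4LP30 and MTND4LP1 had 0 reads in the IP and 12 and 9 in the input. Pooled, they were 14.8-fold lower in the IP against a floor of 3 reads. The interval of their pooled ratio reached up to 0.0906, or 0.210 with halved counts. MTND3P23, the 1 copy of ND3, had 0 IP and 2 input reads.

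Cytochrome b is the mitochondrially encoded subunit of complex III, which passes electrons from ubiquinol to cytochrome c. Its 11 copies held 147 IP and 146 input reads, a pooled ratio of 0.475 (0.375 to 0.601). On the same-RPKM-sum scale this ratio became 1.14 (0.897 to 1.44). MTCYBP18 carried most of these, with 122 reads (27.7 RPKM) in the IP and 128 reads (61.6 RPKM) in the input and a ratio of 0.450 (0.348 to 0.581). MTCYBP44 had 4 IP and 10 input reads, a ratio of 0.189 (0.0432 to 0.654) whose interval reached up to 1.15 with halved counts.

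Copies of the cytochrome c oxidase genes, whose products form the catalytic core of complex IV, had a lower pooled ratio than complex I copies. By copy the order was the other way. Median log2 ratios past the filter were -1.18 over 16 complex IV copies and -1.58 over 14 complex I copies. The 27 MTCO copies held 637 IP and 1167 input reads, a pooled ratio of 0.258 (0.233 to 0.284), or 0.616 on the same-RPKM-sum scale. MTCO1P12 had 304 reads (33.4 RPKM) in the IP and 492 reads (115 RPKM) in the input, a ratio of 0.291 (0.252 to 0.337). The other 12 copies of MTCO1 held 98 IP and 94 input reads and stood at 0.492 (0.367 to 0.660), or 1.18 on the same-RPKM-sum scale. Their interval lay above that of MTCO1P12, but with halved counts it reached down to 0.323 and that of MTCO1P12 up to 0.358, so that they overlapped. Among them, MTCO1P42 had 19 IP and 22 input reads, a ratio of 0.407 (0.209 to 0.789). MTCO1P40 and MTCO1P53 had the same counts, 12 IP and 16 input reads, and both stood at 0.354 (0.153 to 0.797). With halved counts these intervals included 1, reaching up to 1.02 for MTCO1P42 and 1.16 for MTCO1P40 and MTCO1P53. MTCO2P12 had 43 reads (10.7 RPKM) in the IP and 87 reads (45.9 RPKM) in the input, a ratio of 0.233 (0.158 to 0.340), while MTCO2P1, with 8 IP and 2 input reads, was at 1.89 with an interval from 0.377 to 18.2.

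Among the copies of CO3 with at least 10 reads, the deepest had the lowest ratio. MTCO3P12 had 154 reads (47.7 RPKM) in the IP and 453 reads (298 RPKM) in the input, a ratio of 0.160 (0.133 to 0.193). MTCO3P22 stood at 0.262 (0.108 to 0.599) on 10 IP and 18 input reads, and MTCO3P9 at 0.944 (0.328 to 3.06) on 12 and 6. The interval of MTCO3P12 lay within that of MTCO3P22. With halved counts it reached up to 0.209 and overlapped that of MTCO3P9 as well.

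ATP6 and ATP8 encode membrane subunits of ATP synthase, and their coding sequences overlap in the mitochondrial genome, as do the listed copies MTATP6P1 and MTATP8P1, which share 46 bases. MTATP6P1 (chromosome 1, 633696 to 634376, plus strand) had 2541 RPKM in the IP and 18722 RPKM in the input, a ratio of 0.136 (0.133 to 0.139). It supplied nearly all of the 10211 IP and 35483 input reads of the 6 ATP6 copies. MTATP8P1 had 31 reads (25.4 RPKM) in the IP and 119 reads (207 RPKM) in the input, a ratio of 0.123 (0.0800 to 0.184). The intervals of these neighbours overlapped, although their levels differed widely; reads in the shared bases can be counted for either copy or for both. On the same-RPKM-sum scale the 8 copies of both genes stood at 0.325.

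**Figure D3:**
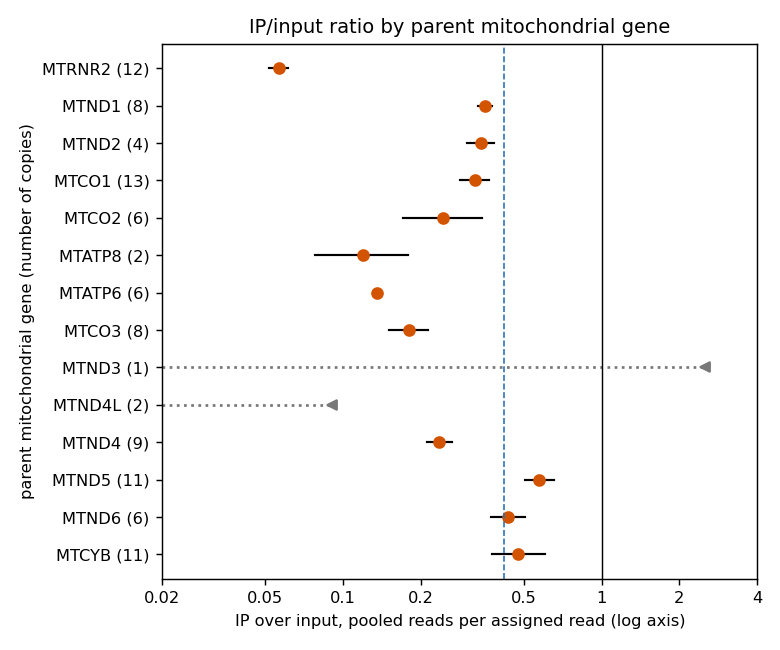
Pooled IP over input ratio of the copies of each mitochondrial gene on a log axis, in the order of the mitochondrial genome, with 95% counting intervals as bars and the number of copies in brackets; arrows mark the upper bound where the IP had 0 reads. The solid line is 1 and the dashed line, at 0.418, is where 1 falls after scaling to the same RPKM sum. The points of MTND5, MTND6 and MTCYB lie beyond the dashed line and so change side on that scale, but the bars of MTND6 and MTCYB cross it. Among parents with IP reads, MTRNR2 lies lowest at 0.0564.

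Ordered by pooled ratio, the parents with reads in both libraries ran from MTRNR2 (0.0564) through MTATP8 (0.120), MTATP6 (0.136), MTCO3 (0.180), MTND4 (0.236), MTCO2 (0.243), MTCO1 (0.324), MTND2 (0.341), MTND1 (0.353), MTND6 (0.434) and MTCYB (0.475) to MTND5 (0.575). Between neighbours in this order, counting intervals were separate for MTRNR2 and MTATP8 and for MTATP6 and MTCO3, and overlapped for the others. The bounds of MTATP6 and MTCO3 both came to 0.140 with halved counts. With halved counts the interval of MTRNR2 reached up to 0.0636 and that of MTATP8 down to 0.0612, so that they overlapped as well. The order of ratios does not depend on the scale between the libraries, since every ratio moves by the same factor.

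Most reads fell in a pair of genomic clusters. Among the 99 copies, 54 lay within 10 kb of another, in 17 clusters, and 45 lay alone. The cluster on chromosome 1, from 629062 to 634922, held 7 copies on the plus strand in the gene order of the mitochondrial genome, from MTND1P23 to MTCO3P12. It carried 85.3% of the IP reads and 84.7% of the input reads of all 99 copies, with a pooled ratio of 0.154 (0.151 to 0.157). A cluster on chromosome 5, from 134923303 to 134928326, held MTND4LP30, MTND4P12, MTND5P11, MTND6P4 and MTCYBP18 and carried 8.996% of the IP reads and 3.90% of the input reads of all copies. Its pooled ratio was 0.353 (0.329 to 0.379), above that of the chromosome 1 cluster without overlap of the intervals. The files name no genome build; start and end of 56 of the 99 copies equal those of RefSeq on GRCh38.p14, which lists all 99 as pseudogenes.

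Levels within the chromosome 1 cluster were far more uneven than the ratios. Its copies ranged from 10.7 RPKM (MTCO2P12) to 2541 RPKM (MTATP6P1) in the IP, a 238-fold range, and from 45.9 to 18722 RPKM in the input, a 408-fold range. The ratios of the same copies spanned 0.123 to 0.352. Along the cluster, the copies of ND1, ND2 and CO1 stood at 0.352, 0.339 and 0.291, that of CO2 at 0.233, and those of ATP8, ATP6 and CO3 at 0.123, 0.136 and 0.160. In the chromosome 5 cluster the MTND4P12 ratio of 0.230 was separate from those of MTND5P11, MTND6P4 and MTCYBP18, at 0.535, 0.449 and 0.450, which overlapped each other. Whether the copies of a cluster came from 1 integration was not tested, and as neighbours they cannot be taken as independent of each other.

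**Figure D4:**
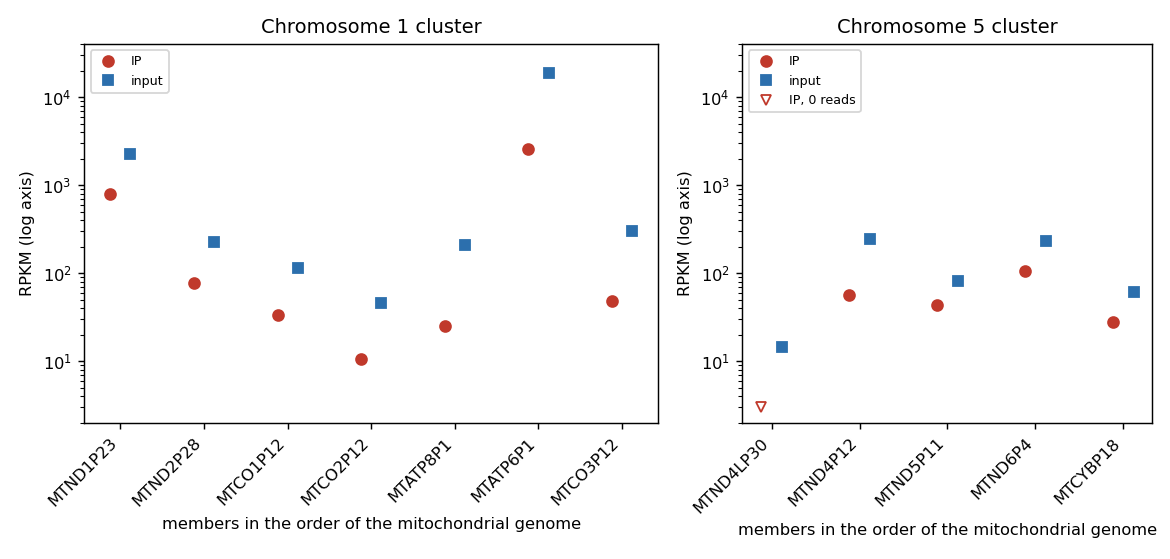
RPKM on a log axis of each copy in the clusters on chromosomes 1 and 5, in the order of the mitochondrial genome, with IP as circles, input as squares and an open triangle for 0 IP reads. Each copy is lower in the IP than in the input on the deposited scale, with ratios of 0.123 at MTATP8P1 and 0.136 at MTATP6P1 and 0 IP reads at MTND4LP30. On the same-RPKM-sum scale MTND5P11, MTND6P4 and MTCYBP18 would be higher in the IP, though the intervals of MTND6P4 and MTCYBP18 include 1 there.

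Genes that share these loci gave few reads. The chromosome 1 cluster lies within the span of AL669831.3 on the other strand, which had 32 IP and 34 input reads, a ratio of 0.444 (0.265 to 0.742). AC114498.2, a short entry opposite to MTCO1P12, had 14 IP and 26 input reads, a ratio of 0.254 (0.123 to 0.505) that overlaps that of MTCO1P12. Per length it stood near MTCO1P12, at 26.7 RPKM in the IP and 105 RPKM in the input, against 33.4 and 115 RPKM. AC008670.1, opposite to MTND4LP30, had 0 IP and 4 input reads (19.4 RPKM in the input, against 14.5 RPKM for MTND4LP30). The chromosome 5 cluster lies within PCBD2, a gene for a pterin dehydratase, which had 48 IP and 15 input reads and stood at 1.51 (0.831 to 2.90). MTND6P4 is on the strand of PCBD2 and stood lower, at 0.449, without overlap of the intervals. In all, 12 copies lay within another gene on its strand, 33 only opposite to one, and 54 within none. In 5 clusters an ND6 copy lay beside copies of other genes, and in each of the 5 it was on the strand opposite to all of them, as in mitochondrial DNA.

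Outside these clusters and apart from the 16S copies, 75 copies remained, with 260 IP and 246 input reads between them. Their pooled ratio was 0.499 (0.417 to 0.596), or 1.19 on the same-RPKM-sum scale with an interval from 0.998 to 1.43. They were thus less low than the chromosome 1 cluster, without overlap of the intervals. Among all 99 copies, 63 had under 10 reads, with 120 IP and 95 input reads in all, and stood at 0.596 (0.451 to 0.788), turning to 1.42 on that scale. Of the 31 copies with 0 input reads, 20 had exactly 2 IP reads and the highest had 8. Of the 25 copies with 0 IP reads, 12 had exactly 2 input reads and the highest had 20. Over all 25556 genes, 4881 had 0 input reads and 2022 had 0 IP reads.

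None of the copies was among the authors' 7643 peaks: 0 peaks overlapped any of the 99 copies by at least 1 base, on either strand. Among all genes, 14.5% were overlapped by a peak between start and end, and 3.25% of those no longer than the longest copy.

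Nuclear genes with related roles were set beside the copies, by counts and medians only. Of 82 nuclear-encoded subunits of the respiratory chain and ATP synthase, 81 passed the filter. Of these, 17 (21.0%) were at least 2-fold lower in the IP and 1 (1.23%) at least 2-fold higher, against 8.25% and 11.3% of all genes. Their median log2 ratio was -0.50 (-0.63 to -0.23), which turned to 0.67 on the same-RPKM-sum scale, where the median of the 49 copies was -0.90. On log2(RPKM + 1), the lowest of those averaging 5 RPKM or more, COX7C of complex IV (28.1 RPKM in the IP and 149 RPKM in the input, 0.188 times, 0.165 to 0.214) and NDUFB1 of complex I (10.9 and 51.5 RPKM, 0.213 times, 0.174 to 0.259), had ratios near those of the CO3 and ND4 copies. COX7C shares exon bases with SNORD138. As a plain ratio the complex I subunit NDUFA7 was lower still, at 0.157 (0.0745 to 0.309) on 12 IP and 36 input reads. The highest were the ATP synthase subunit ATP5ME (208.5 and 79.1 RPKM, 2.64 times) and the complex III core protein UQCRC1 (39.6 and 22.7 RPKM, 1.75 times).

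Nuclear genes that make, bind or degrade mitochondrial RNA had a median log2 ratio of -0.33 over 13 measured of 15 listed, or 0.57 on the same-RPKM-sum scale. At least 2-fold lower was 1 of the 13, TFB2M at 0.337 (0.204 to 0.551), or 7.69%, near the 8.25% of all genes. That much higher were 0, against 11.3% of all genes. SLIRP, which with LRPPRC stabilises mitochondrial mRNAs, had 20.04 RPKM in the IP and 39.5 RPKM in the input, a ratio of 0.508 (0.431 to 0.598), while LRPPRC had 5.41 and 5.16 RPKM, a ratio of 1.05 (0.859 to 1.29). POLRMT, the mitochondrial RNA polymerase, had 14.6 RPKM in the IP and 8.38 RPKM in the input, a ratio of 1.75 (1.42 to 2.16).

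Pseudogenes of nuclear protein-coding genes stood higher when pooled than all copies of mitochondrial genes together. The 315 listed pseudogenes of ribosomal protein genes held 2740 IP and 1344 input reads, a pooled ratio of 0.962 (0.901 to 1.03), against 0.153 for the copies of mitochondrial genes. Of the 117 past the filter, 33 (28.2%) were at least 2-fold lower and 17 (14.5%) at least 2-fold higher, against 8.25% and 11.3% of all genes. Some of the 33 passed the filter through the input alone, such as RPL27P8 with 0 IP and 4 input reads. For this list no count was made with the filter on the IP, so the 28.2% cannot be read apart from the filter. The median log2 ratio of the 117 was -0.44, turning to 0.60 on the same-RPKM-sum scale. The 30 pseudogenes of nuclear-encoded respiratory chain and ATP synthase genes held 82 IP and 54 input reads, a pooled ratio of 0.716 (0.502 to 1.03). Of their 15 measured members, 8 (53.3%) were at least 2-fold lower and 2 (13.3%) higher, against 8.25% and 11.3% of all genes. Among the 8, COX17P1, COX6CP7, NDUFA3P1, NDUFS5P6 and NDUFA5P11 had 0 IP and 2 or 3 input reads. These passed the filter through the input alone. Among the 2 higher, COX7CP1 had 5 IP and 0 input reads and passed through the IP alone. The median log2 ratio of the 15, -1.20 (-1.78 to -0.05), rests on few reads for each gene. The interval of that median overlaps the interval for the copies, and the intervals of the pooled ratios do not. For the 63 copies with under 10 reads, however, the pooled interval (0.451 to 0.788) overlapped that of the 30 pseudogenes. It did not overlap that of the ribosomal protein pseudogenes.

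**Figure D5:**
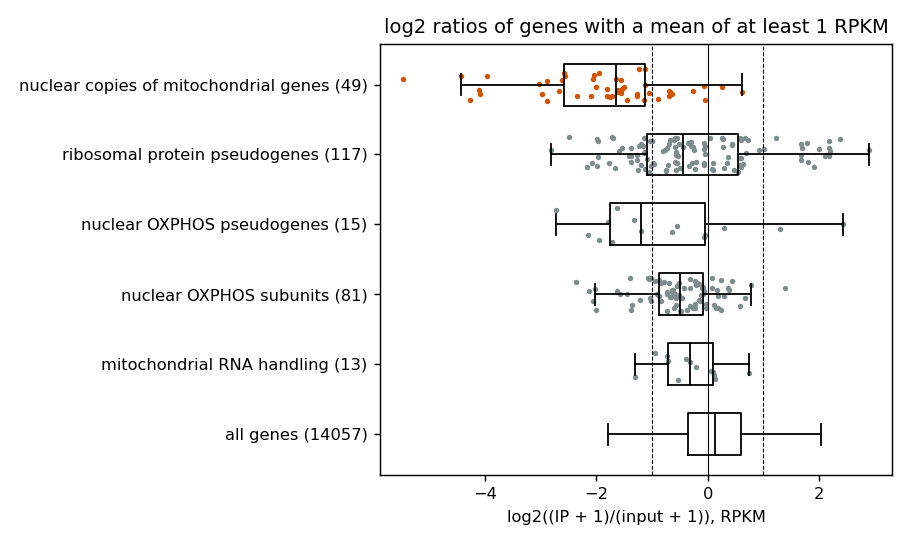
log2((IP + 1)/(input + 1)) on RPKM for genes past the filter of 1 RPKM, drawn as a point per gene (none for all genes), boxes for the quartiles and whiskers to the last point within 1.5 box lengths; numbers in brackets count the genes and dashed lines mark 2-fold. The 49 copies of mitochondrial genes have a median of -1.64, against -1.20 for pseudogenes of nuclear oxidative phosphorylation (OXPHOS) genes, -0.50 for the nuclear OXPHOS subunits, which turns positive on the same-RPKM-sum scale, and 0.14 for all genes.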

How the data were processed

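The authors deposited 1 expression table and 1 peak list for 1 IP and 1 input library, grouped here by their titles. Per the submitters' processing notes, the tools were Trimmomatic and STAR 2.5.3a. How genes were counted, on which annotation and build, and how reads that align to several places were treated is unstated in these sources, as is the peak caller; this bears on every copy named here. Per the labels' protocols, a stranded kit with tags of 8 random bases was used. The expression values are taken as RPKM, as deposited by the authors under a header without a unit: multiplied by gene length, the values add up to equal totals for the IP and the input. All values were whole multiples of 1 read within 0.01 of a read, which gave the read counts. The table has 0 columns of other samples. Per the file headers, the authors' peak list has for each peak a fold (ratio), a score, a false discovery rate and a p-value, of which only the positions were used.

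Ratios are reads per assigned read, with exact 95% intervals (conditional binomial, Clopper-Pearson). The 2-fold counts and medians used log2((IP + 1)/(input + 1)) on RPKM for genes averaging 1 RPKM or more over both libraries, and no p-value was computed. Folds against 0 IP reads used a floor of 3 reads and leave out counting error of the input. Named copies are, per parent, up to 3 with the most reads among those with at least 10, every MTRNR2L copy with at least 10, and the 2 highest and 2 lowest nuclear-encoded subunits with a mean of at least 5 RPKM; other copies, MIR4485, the neighbouring genes, NDUFA7 and the mitochondrial RNA genes were named once their values had been seen. The members and all lists were chosen with earlier results of these data known. Alternatives were 3 scalings, a pseudocount of 0.1, other filters, halved counts and left-out members. Sequences are from RefSeq on GRCh38.p14, which matched 99 of 99 members for class; member sequences were not used here. The software was scipy 1.17.1, pandas 2.3.3 and numpy 2.4.6 under Python 3.11.15, with plots from matplotlib 3.10.9.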

Additional observations from a re-analysis of the deposited data

How the results depend on the processing

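Where the settings moved a value, directions on the deposited scale held for the results over all copies and changed for 3 parents. The pooled ratio of the copies, 0.153, was 0.139 after centring, 0.117 with scaling to protein-coding reads, 0.366 with scaling to the same RPKM sum, 0.239 over the 91 copies that share no exon bases, 0.208 without MTATP6P1, 0.0657 over the 45 copies that lie alone, 0.165 without the MTRNR2L copies and 0.147 without the chromosome 1 cluster, the last tried after seeing the data. The copies that lie alone include MTRNR2L12 and MTRNR2L8, which hold most of their reads. With scaling to the same RPKM sum, MTND5 copies turned to 1.38, MTND6 copies to 1.04 and MTCYB copies to 1.14. That left 11 of 14 parents below 1, and the intervals of MTND6 and MTCYB included 1. Centring, protein-coding reads, halved counts and leaving out copies that share exon bases left all 14 below. The median log2 ratio was -2.03 with scaling to protein-coding reads, -0.90 with the same RPKM sum, -2.37 with a pseudocount of 0.1, -0.78 with no low-value filter and -1.38 with the filter on the IP alone (added). The count at least 2-fold lower was 39, against 23 with that filter and 24 with the same RPKM sum, and the count at least 2-fold higher was 0, against 3 with that filter, 3 with no filter and 2 with the same RPKM sum, where 3.23% of all genes were that much lower and 61.8% higher. Without exon sharing, pooled ratios of MTATP6, MTCO3 and MTND4 copies were 0.283, 0.455 and 0.398, since MTATP6P1, MTCO3P12 and MTND4P12 then drop out. By the series' description the IP and the input came from the same lysate, so each ratio compares 1 pair. No replicate pair was available. Depth limits the 63 copies with under 10 reads.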
